A study of Mus musculus with 11 samples.

Results

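Mural cells are the pericytes and vascular smooth muscle cells that wrap the endothelial tube. Pericytes are held at the capillary by platelet-derived growth factor B, which endothelial cells release and which signals through the receptor PDGFRβ on the mural cell. Smooth muscle cells of arterioles carry a contractile apparatus of smooth muscle actin and myosin, and endothelial ligands of the Notch family act on NOTCH3 in mural cells. In the retina, pericyte coverage is dense, and its loss is a known early lesion of diabetic retinopathy. The genes described here are 10 transcripts of these cells. Of these, 6 were chosen as pericyte genes (Pdgfrb, Cspg4, Rgs5, Kcnj8, Abcc9 and Notch3) and 4 as smooth muscle genes (Acta2, Tagln, Myh11 and Des). They are 10 of the 55359 genes counted, and they were found by matching each symbol to 1 gene identifier of the count tables.

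The cells were sorted as CD31+/CD45- from retinas of C57BL/6 mice in the oxygen-induced retinopathy (OIR) model, in which pups are kept in high oxygen and pathological vessels grow after the return to room air. CD31 is the surface protein encoded by Pecam1 and marks endothelium, and CD45 marks leukocytes. OSM-treated mice (n = 5) received 0.5 µL of oncostatin M at 100 ng/µL into the vitreous at P12, PBS-treated mice (n = 6) received PBS, and cells were collected at P17. All mice went through OIR, so no group without retinopathy was compared. Both retinas of 1 mouse made 1 sample. The mice came from 3 litters, and the paper names 3 independent OIR experiments. Each litter went through OIR as a run of its own. Differences between litters can therefore not be told apart from differences between OIR runs. Litter 1 held OSM mice 1 and 2 and PBS mice 3 and 4, litter 2 held OSM mice 5 and 6 and PBS mice 7 and 8, and litter 3 held OSM mouse 9 and PBS mice 10 and 11. The study's methods mention PBS in contralateral eyes, while mice were grouped here by the single treatment that each label names.

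The libraries held 26697990 to 56033479 counted reads per mouse (median 32500202). Endothelial transcripts were the bulk of the cell type markers examined. The 12 endothelial genes summed to between 15890 and 21290 CPM (read counts scaled to library size) in every mouse, and the highest was the tight junction gene Cldn5 at 4703 ± 590 CPM (SD, n = 11). Pecam1 was at 1333 ± 267 CPM. The 5 leukocyte genes summed to at most 77.8 CPM. The sorted cells thus carried the endothelial markers of their label, together with the mural transcripts described below. In bulk samples, fewer mural cells and less RNA per mural cell cannot be told apart.

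The sequence around the starts of the members was read because the members varied together across mice, as described below. RefSeq promoters (250 bases before to 50 after the gene's start) were read for 7 members. Their sequences were located by exact match in GRCm39. Pdgfrb, Tagln and Myh11 were left out, so the motif counts below do not cover them. Rgs5 (chromosome 1, plus strand) is shown because it was the most abundant member, and Notch3 (chromosome 17, minus strand) because it encodes the receptor of the Notch signal. The bases shown lie upstream of every annotated exon, at chr1:169482820-169483035 and chr17:32385894-32386114.
Rgs5: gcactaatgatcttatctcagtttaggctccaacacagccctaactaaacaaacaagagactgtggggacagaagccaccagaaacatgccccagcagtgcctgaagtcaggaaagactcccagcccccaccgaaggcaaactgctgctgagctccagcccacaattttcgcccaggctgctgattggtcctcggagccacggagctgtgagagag
Notch3: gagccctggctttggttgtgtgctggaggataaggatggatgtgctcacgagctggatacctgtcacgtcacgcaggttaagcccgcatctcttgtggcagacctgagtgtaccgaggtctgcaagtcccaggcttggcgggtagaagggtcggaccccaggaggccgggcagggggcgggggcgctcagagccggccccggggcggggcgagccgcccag

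In these promoters, 4 motifs were searched on both strands. They were TGGGAA, the core bound by the Notch partner RBPJ, CATTCC, the MCAT element of muscle genes, CANNTG, the E-box, and the CArG box, the element bound by serum response factor. The CArG box was searched in its strict form, with a middle of A or T only, and forms with a mismatch were not searched. TGGGAA stood in 3 of 7 members (Kcnj8, Abcc9 and Acta2), against 25.4% of 32544 RefSeq promoters of the same length. CATTCC stood in 2 of 7 (Abcc9 and Acta2), against 14.6%, and the E-box in 5 of 7, against 72.3%. The strict CArG box was in 0 of 7, against 1.64%. A match is a description of the letters and not a binding site. Acta2 and Abcc9 lie on the minus strand. Their matches fall within annotated exons, counted over the exons of all genes, and are shown in the direction of the gene with the motif in capitals. They are at chr19:34232783-34232812, chr19:34232902-34232931 and chr6:142648204-142648233.
Acta2, RBPJ core: ttgctccttgttTGGGAAgcgagtgggagg
Acta2, MCAT on the other strand: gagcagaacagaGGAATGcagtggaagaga
Abcc9, RBPJ core: ggtggtcctgaaTGGGAAtggccggagtga

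In Acta2 the TGGGAA match began 27 bases before the RefSeq start and the CATTCC match 146 bases before it. In Kcnj8 the TGGGAA match began at base 1 after the start, and all 250 bases before that start lie in annotated exons. In Abcc9 the matches began 221 and 219 bases before the start and overlapped each other, so they are 1 stretch of sequence rather than 2 independent hits.

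Pericyte transcripts were present in every mouse, and smooth muscle transcripts were fewer and more uneven. Levels between genes were compared as CPM per kilobase of merged exons. Rgs5, a regulator of G protein signaling that is a common pericyte marker, was the highest at 59.1 ± 34.5 CPM per kb (SD, n = 11). Kcnj8, the pore subunit of the ATP-sensitive potassium channel of mural cells, followed at 28.0 ± 14.0 CPM per kb. Both kept their place above the next gene in 11 of 11 mice.

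Acta2, smooth muscle actin, was at 13.5 ± 11.1 CPM per kb and Pdgfrb at 12.6 ± 4.94 CPM per kb. Acta2 was above Pdgfrb in 5 of 11 mice, so this order was not larger than the spread between mice. Pdgfrb was above Abcc9 in 11 of 11 mice. Abcc9, the sulfonylurea receptor that pairs with the Kcnj8 product, was at 5.55 ± 2.94 CPM per kb, the proteoglycan gene Cspg4 (NG2) at 5.29 ± 3.58, and Des, the intermediate filament desmin, at 4.86 ± 3.97. Abcc9 was above Cspg4 in 5 mice and Cspg4 above Des in 7 mice, so the order of these genes was also within the spread.

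Notch3 was at 1.26 ± 0.857 CPM per kb, below Des in 10 of 11 mice. The lowest members were contractile genes. Tagln, the actin-binding protein transgelin, was at 0.532 ± 0.343 CPM per kb, and Myh11, the smooth muscle myosin heavy chain, at 0.158 ± 0.327. Tagln had between 7 and 78 reads in each library. Of its exon bases, 66.7% are shared with exons of genes on the opposite strand (1241 bases with Gm48529 and 123 with Pcsk7), and counting under standard settings leaves out reads that fall in more than 1 gene, so the Tagln level can be too low, by an amount that was not tested. The shared part was at most 9.33% of exon bases in the other members, in Acta2, and 0% in Pdgfrb, Cspg4, Rgs5, Kcnj8 and Myh11. Myh11 had no read in 4 mice (OSM mice 1, 2 and 5 and PBS mouse 8) and reached 262 reads in PBS mouse 4.

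Related genes could share reads with some members. Actb, cytoplasmic actin, was far above Acta2 at 13080 ± 2328 CPM, whereas the muscle actins Actg2, Acta1 and Actc1 had means of 2.30, 1.38 and 0.342 CPM. Rgs4, which lies on chromosome 1 with Rgs5 and is itself a pericyte gene, was at 38.2 ± 29.9 CPM. The channel genes Kcnj11 and Abcc8, the relatives of Kcnj8 and Abcc9 known from pancreatic beta cells, were near 0, with means of 0.0327 and 0.00693 CPM. Cnn1, the contractile gene calponin, reached at most 0.314 CPM. Of its exon bases, 35.1% are shared with Elof1 on the opposite strand, so its level can be too low as well, by an amount that was not tested.

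The members varied between mice far more than the endothelial marker used for sorting. The coefficient of variation over 11 mice was 20.01% for Pecam1, and among the members it ran from 39.2% for Pdgfrb to 208% for Myh11. For Rgs5, the level was 209, 145, 291, 418 and 203 CPM in OSM mice 1, 2, 5, 6 and 9, and in PBS mice it ran from 151 to 840 with a median of 460 CPM. The lowest PBS value was in mouse 8 of litter 2 and the highest in mouse 11 of litter 3, and the groups overlapped.

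**Figure D1:**
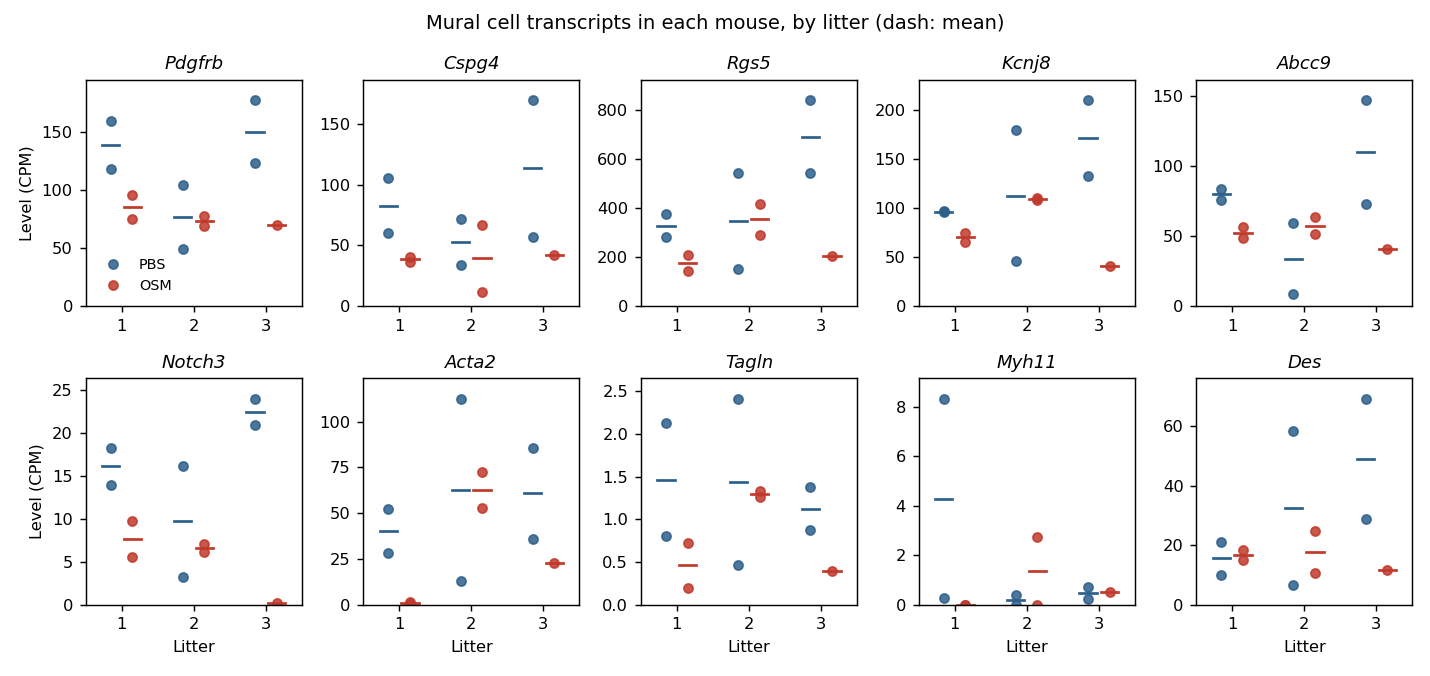
Level of each of the 10 genes in CPM (y axis, a separate linear scale per gene) against litter (x axis). Points are mice, blue for PBS and red for OSM, and dashes are the mean of a treatment within a litter. In litters 1 and 3 the red points of Rgs5, Pdgfrb and Abcc9 lie below the blue ones, and in litter 2 they lie between or above them.

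Set against Pecam1 in the same mouse and per kb of merged exons, the 10 members together ran from 36.0% to 240% of the Pecam1 level. Pecam1 has 10002 merged exon bases and a longest transcript of 4875 bases, against 6148 and 5544 bases for Rgs5. Percentages per kb of the longest transcript would be lower and were not computed. OSM mice 1, 2, 5, 6 and 9 were at 47.2%, 36.0%, 98.3%, 127% and 55.2%. PBS mice 3 and 4 were at 83.0% and 81.6%, mice 7 and 8 at 227% and 43.3%, and mice 10 and 11 at 134% and 240%. Within litter 2, both OSM mice thus lay between the PBS mice, and in litters 1 and 3 every OSM mouse lay below both PBS mice. Rgs5 alone made up 35.3% to 53.4% of the summed CPM of the members.

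The pericyte genes accounted for most of this sum. They stood at 33.6% to 104% of Pecam1 per kb in OSM mice and at 38.8% to 206% in PBS mice. The smooth muscle genes stood at 1.95% to 22.4% in OSM mice, with a median of 7.72%, and at 4.53% to 51.4% in PBS mice, with a median of 13.9%. The lowest pair were OSM mice 1 and 2 of litter 1, at 1.95% and 2.39%. Pecam1 itself ran from 923 CPM in PBS mouse 7 to 1819 CPM in OSM mouse 2. It was at 1492 CPM or more in the 4 mice of litter 1 and at 1269 CPM or less in the mice of litters 2 and 3. Its difference between litters was not called by edgeR (unadjusted p 0.00021, adjusted p 0.0684), and the percentages carry this shift of their denominator.

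**Figure D2:**
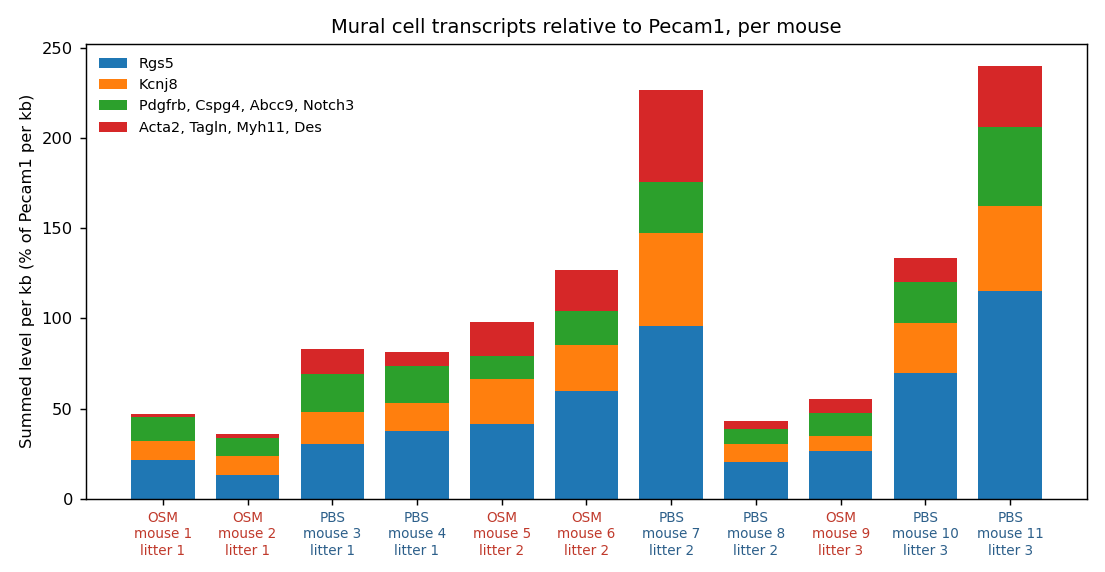
Summed level of the members per kb of merged exons as a percentage of the Pecam1 level per kb (y axis, from 0) in each of the 11 mice (x axis, ordered by litter and treatment). Each bar is 1 mouse and its colours are Rgs5, Kcnj8, the 4 other pericyte genes and the 4 smooth muscle genes, with OSM mice 2 (36.0%) and 1 (47.2%) and PBS mouse 8 (43.3%) as the lowest bars and PBS mice 11 (240%) and 7 (227%) as the highest.

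The members varied together from mouse to mouse. For each member, the log2 CPM was correlated over the 11 mice with the mean scaled log2 CPM of the other 9, as a description of these libraries, whose points share library and depth. Pearson's r was 0.91 for Rgs5, 0.89 for Kcnj8, 0.80 for Pdgfrb and 0.75 for Abcc9. It was 0.60 for Cspg4 and 0.64 for Notch3 among the pericyte genes, and 0.65 for Tagln, 0.63 for Des, 0.56 for Acta2 and 0.53 for Myh11 among the smooth muscle genes. All 10 were at 0.50 or above, against 6.07% of the 13732 tested genes that are not members, whose median r was -0.0077. Spearman's rho was between 0.53 and 0.88.

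The likeness was also computed on other bases. After the litter and treatment means were removed, r was between 0.45 (Cspg4) and 0.98 (Abcc9). Without mice 8 and 9, the 2 mice farthest from the median profile, r was between 0.47 (Des) and 0.89 (Rgs5). The mean profile was highest in PBS mice 11, 7 and 4 and lowest in PBS mouse 8, below OSM mice 9, 1 and 2.

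Among single pairs, the pericyte genes were the most alike. Over 15 pericyte pairs the median r was 0.69 (0.42 to 0.89), and the highest pair was Rgs5 with Kcnj8. Pdgfrb with Abcc9 reached 0.85. Over the 6 smooth muscle pairs the median was 0.45, from -0.03 for Myh11 with Des to 0.71 for Acta2 with Tagln. Across the kinds, the 24 pairs had a median of 0.53, and Kcnj8 with Des reached 0.83. In all, 44 of 45 pairs were above 0.

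**Figure D3:**
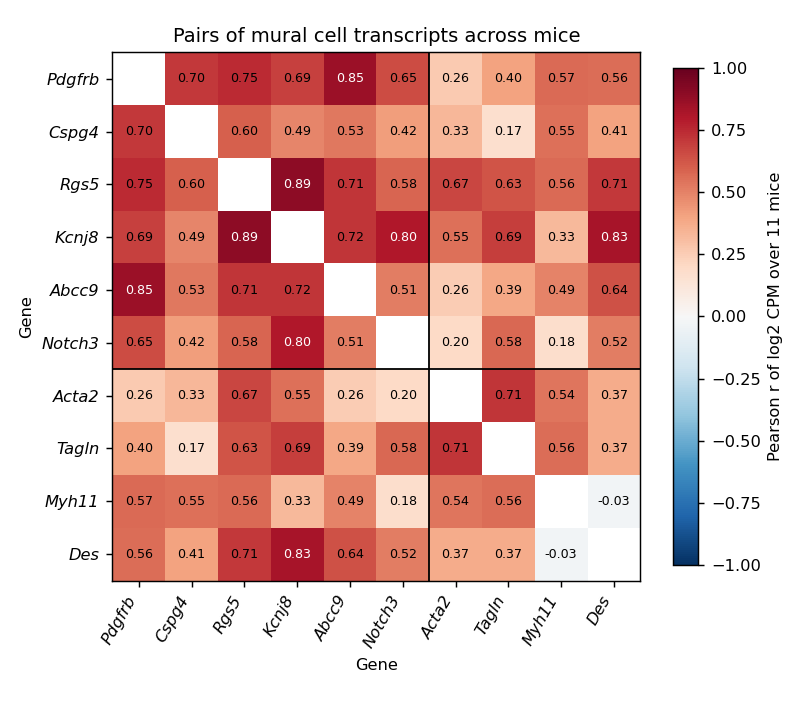
Pearson r of log2 CPM over 11 mice for each pair of members (rows and columns, colour from -1 in blue to 1 in red). Black lines part the 6 pericyte genes from the 4 smooth muscle genes, and the highest value is 0.89 for Rgs5 with Kcnj8 and the lowest -0.03 for Myh11 with Des.

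Of the 10098 genes with a mean of at least 5 CPM, the 8 genes that are not members and had the highest r with the mean profile were Cox4i2 (0.92), S1pr3 (0.91), Aspn (0.90), Nbl1 (0.89), Cd248 (0.89), Myl9 (0.88), Serpine2 (0.88) and Ska2 (0.88). Cox4i2, a subunit of cytochrome c oxidase, and S1pr3, a sphingosine 1-phosphate receptor, are in the list of other pericyte genes, and Myl9, a myosin light chain, is in the list of contractile genes. Cd248 encodes endosialin, a surface protein of pericytes and fibroblasts. Vtn, vitronectin, took place 10 in this order. The summed level of the endothelial genes had an r of -0.62 with the profile. Esam (-0.76), Cldn5 (-0.76) and Cd34 (-0.68) had the lowest values, the median of the 12 genes was -0.25, and Pecam1 had -0.30.

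The comparison of OSM with PBS asks how the OIR vessels responded to oncostatin M. In 10 of 10 members the log2 fold change (OSM relative to PBS, with litter as a term) was below 0, beside 51.6% of the 13742 genes tested. The median was -0.75 over the members and -0.01 over all genes. No member was called by edgeR's quasi-likelihood test with Benjamini-Hochberg adjustment (adjusted p under 0.05): 0 of 10, beside 0% of all genes. The adjusted p of every member was 0.9996, and the lowest of any gene was 0.811. At an unadjusted p under 0.05 there was 1 member, beside 4.17% of genes. The members varied together, so their shared sign is not the sign of 10 independent genes. By DESeq2 with litter, 5 of 10 members had an unadjusted p under 0.05, beside 9.03% of the same genes: Pdgfrb (0.028), Cspg4 (0.043), Rgs5 (0.0427), Notch3 (0.0381) and Acta2 (0.0245). After adjustment DESeq2 called 168 genes (0.763% of those with an adjusted p), of which 0 were members, and the members' lowest adjusted p was 0.48.

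Pdgfrb, the receptor, was at 96.2, 75.6, 69.3, 78.1 and 70.4 CPM in OSM mice 1, 2, 5, 6 and 9, and at 49.5 to 178 CPM (median 121) in PBS mice. The OSM mice lay close together, and all PBS mice but mouse 8 were above them. Its log2 fold change was -0.55 ± 0.24 (SE), with an unadjusted p of 0.0409 in edgeR and an adjusted p of 0.9996. Within litters 1, 2 and 3 the difference was -0.69, 0.03 and -1.07 on the log2 scale.

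Cspg4 was at 40.4, 36.5, 12.02, 67.1 and 42.1 CPM in the OSM mice and at 33.8 to 169 CPM (median 65.9) in PBS mice. OSM mouse 5 was the lowest of all. Its log2 fold change was -0.92 ± 0.46, and it was below 0 in each litter (-1.05, -0.80 and -1.22). Only Cspg4 and Notch3 were lower in OSM in every litter, 2 of 10 members, beside 12.3% of genes. For Rgs5 the log2 fold change was -0.74 ± 0.37, with within-litter values of -0.90, 0.29 and -1.73. In litter 2, the mean of the 2 OSM mice was above that of the PBS mice, of which mouse 8 was low.

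Without a filter on low counts, edgeR's adjusted p was 0.00493 for Cspg4 and 4.03e-05 for Rgs5, and it was 3.06e-09 for Acta2, while the fold changes hardly moved (-0.92, -0.73 and -2.11). Over the 22 alternatives, the adjusted p ran from those values to 0.99999 for each of the 3 genes. In no other alternative was a member called, and the fit without a filter held the 28940 genes with any read in place of 13742.

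Both subunits of the potassium channel had their lowest value relative to PBS in litter 3, which held 1 OSM mouse. Pdgfrb, Cspg4, Rgs5, Notch3 and Des also had their lowest value there. Kcnj8 was at 65.6, 74.8, 108, 111 and 40.7 CPM in OSM mice and at 45.7 to 210 CPM (median 115) in PBS mice. Its log2 fold change was -0.64 ± 0.39, with -0.46, 0.27 and -2.04 within the litters. Abcc9 was at 40.5 to 63.4 CPM in OSM mice and at 8.41 to 147 CPM in PBS mice, both extremes being PBS mice (8 and 11). Its log2 fold change was -0.27 ± 0.50, with -0.61, 1.35 and -1.36 within the litters, and it was 0.083 without OSM mouse 9.

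Notch3 was at 5.58, 9.77, 6.11, 7.06 and 0.215 CPM in OSM mice and at 3.29 to 23.9 CPM (median 17.2) in PBS mice. All PBS mice but mouse 8 exceeded every OSM mouse. OSM mouse 9 had 12 reads, against 712 and 769 in the PBS mice of its litter. The log2 fold change was -1.52 ± 0.85 in all mice, and -1.104, -0.15 and -6.36 within the litters. Without OSM mouse 9 it was -0.81.

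Acta2 had the lowest log2 fold change of the members in the fit with litter as a term. It was at 0.258 and 1.39 CPM (9 and 48 reads) in OSM mice 1 and 2, and at 53.1, 72.4 and 23.0 CPM in OSM mice 5, 6 and 9. In PBS mice it ran from 12.8 to 112 CPM with a median of 44.2. The low OSM mice were both from litter 1, whose PBS mice were at 52.4 and 28.5 CPM. The log2 fold change was -2.10 ± 1.07, with -5.84 in litter 1, 0.71 in litter 2 and -1.27 in litter 3, and it was -0.52 with litter 1 left out and -3.61 with litter 2 left out. Without OSM mouse 1 it was -1.35, and without OSM mouse 2 it was -1.44. In the fit with no litter term it was -0.87, and Notch3, at -1.48, was then the lowest.

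The other smooth muscle genes had wide errors. For Tagln the log2 fold change was -1.05 ± 0.92, with levels of 0.200 to 1.33 CPM in OSM mice and 0.461 to 2.41 CPM in PBS mice. Des was at 10.8 to 24.7 CPM in OSM mice and at 6.57 to 69.2 CPM in PBS mice, with a log2 fold change of -0.76 ± 0.59 and a value of 0.19 in litter 1. It was -0.069 without PBS mouse 7. Myh11 was at 0, 0, 0, 2.73 and 0.519 CPM in OSM mice and at 0 to 8.31 CPM in PBS mice, and its log2 fold change of -0.61 ± 3.00 had no determined sign: it was 0.64 without OSM mouse 1 and 1.83 without litter 1. Both OSM mice of litter 1 had no Myh11 read, so no fold is given there.

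**Figure D4:**
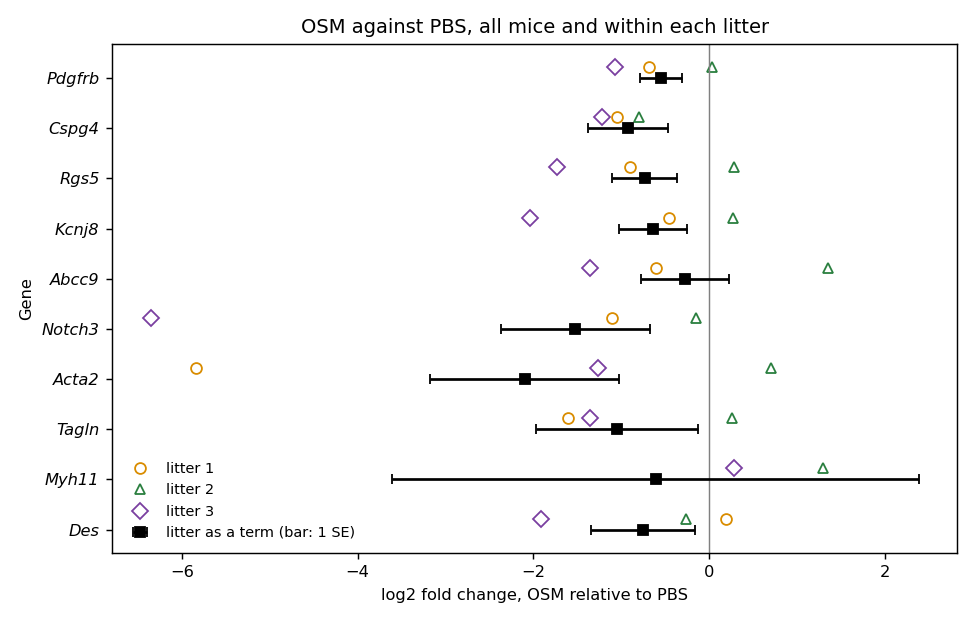
log2 fold change of OSM relative to PBS (x axis) for the 10 members (y axis). Black squares are the fit with litter as a term and bars are 1 SE, and open symbols are the values within litters 1, 2 and 3, where litter 3 has 1 OSM mouse and Myh11 in litter 1 is left out. All squares lie below 0, from -0.27 for Abcc9 to -2.10 for Acta2, and 7 of the 10 triangles of litter 2 lie above 0. The triangles compare means of log2 CPM. By mean CPM, litter 2 was lower in OSM for Pdgfrb (73.7 against 76.9), Kcnj8 (110 against 113) and Tagln (1.30 against 1.44). Of the other genes with a triangle above 0, Rgs5, Abcc9, Acta2 and Myh11 were higher by mean CPM too.

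In no member were all OSM mice below all PBS mice (0 of 10, beside 0.262% of genes). In Pdgfrb and Notch3, PBS mouse 8 was the only PBS mouse within or below the OSM range. Without PBS mouse 8 the median log2 fold change of the members was -1.09, and without OSM mouse 9 it was -0.59. It was -0.64 without litter 1, -1.23 without litter 2 and -0.42 without litter 3, over the 9 members that could then be fitted.

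Relative to Pecam1, with the Pecam1 count in place of library size, 10 of 10 members were again below 0, with a median of -0.91 beside a shift of -0.11 in the median of all genes. Pdgfrb (-0.68 ± 0.27), Cspg4 (-1.06 ± 0.47) and Rgs5 (-0.87 ± 0.39) had unadjusted p-values of 0.0267, 0.0446 and 0.0441 in edgeR. These are 3 of 10 members, beside 5.06% of genes. After adjustment 0 of 10 were called, beside 0% of genes. With the summed endothelial genes in place of Pecam1 the median was -0.84.

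The levels of the members did not pass the test between litters. The litter term was called for 0 of 10 members, beside 0.102% of genes, and had an unadjusted p under 0.05 for 0 of 10, beside 11.4%. The widest estimate was that of Acta2, at 2.88 higher in litter 2 than in litter 1 on the log2 scale. The OSM effect itself was also compared between litters. Its interaction with litter was called for 0 of 10 members, beside 0% of genes. It had an unadjusted p under 0.05 for 2 of 10, beside 7.65%: Notch3 (0.0046) and Acta2 (0.0108).

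Other genes of mural cells had similar values. Of the 12 other pericyte genes 10 were tested, 9 with a log2 fold change below 0 and 1 above, and the median was -0.72. The test called 0 of them, and 2 were under an unadjusted p of 0.05. Rgs4 was at -1.73 ± 0.49, with an unadjusted p of 0.00479 and an adjusted p of 0.9996 in edgeR. Higd1b, of the HIG1 hypoxia-inducible domain family, was at -1.07 ± 0.40, with an unadjusted p of 0.0211. Rgs4 was lower in OSM in each litter (-1.21, -0.91 and -3.18). Vtn was at -0.52 ± 0.37 and S1pr3 at -0.77 ± 0.48. Of the 12 genes, 9 had an r of at least 0.50 with the mean profile. Tbx18, a mural transcription factor, had no read in 4 mice, and Atp13a5 none in 9.

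Of the 12 other contractile genes, 9 were tested, with 8 below 0, 1 above and a median of -0.80. All had an unadjusted p above 0.05 in edgeR. Myl9 was at -0.45 ± 0.33 and Mylk, myosin light chain kinase, at -0.82 ± 0.56. The most abundant gene of this list, Smtn (smoothelin), was at 531 ± 110 CPM with an r of -0.18 with the mural profile and a log2 fold change of -0.19 ± 0.15. Sncg, synuclein gamma, was at 0.42 ± 0.37 and also had an r of -0.18. Of the 9 tested genes, 5 had an r of at least 0.50 with the mean profile, and the median r was 0.57.

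**Figure D5:**
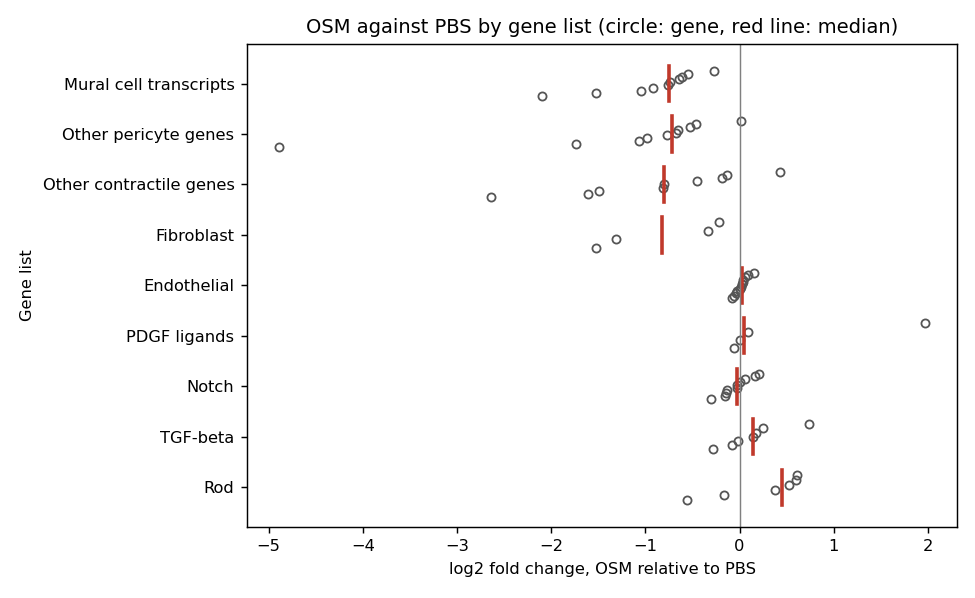
log2 fold change of OSM relative to PBS (x axis) for the tested genes of 9 lists (y axis). Circles are genes and red lines are list medians, which are -0.75 for the mural members, -0.72 for the other pericyte genes, -0.80 for the other contractile genes, -0.82 for fibroblast genes and 0.02 for endothelial genes.

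The genes of signals between endothelium and mural cells lay on both sides of 0. Pdgfb, the ligand of PDGFRβ, was at 327 ± 29.6 CPM with a log2 fold change of 0.00 ± 0.08. Of the 5 PDGF genes 4 were tested, with 1 below 0 and 3 above. Pdgfd was at -0.06 ± 0.15, Pdgfa at 0.09 ± 0.25 and Pdgfc at 1.97 ± 2.66. Angpt2, the antagonist ligand of the Tie2 receptor Tek, was at -0.45 ± 0.29, Tek at -0.09 ± 0.17 and Tie1 at -0.10 ± 0.10. All 3 tested genes of that list were below 0, with a median of -0.10. Angpt1, the mural ligand of Tek, had no read in 7 mice.

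Of the 10 Notch genes, 6 were below 0 and 4 above, with a median of -0.03. The endothelial ligand Dll4 was at -0.03 ± 0.13, Jag2 at -0.15 ± 0.17, the receptor Notch1 at -0.13 ± 0.21 and the target Hes1 at 0.06 ± 0.09. Of the 7 TGF-beta genes, 3 were below 0 and 4 above, with a median of 0.15, and the endothelial coreceptor Eng was at -0.02 ± 0.08, Acvrl1 at -0.08 ± 0.10, Tgfbr2 at 0.15 ± 0.16 and Tgfb1 at 0.17 ± 0.13. Of the 4 genes of serum response factor and its coactivators 3 were tested, with 2 below 0 and 1 above and a median of -0.34. Srf itself was at -0.53 ± 0.26 and was lower in OSM in each litter (-0.60, -0.73 and -0.22), with an unadjusted p of 0.067 in edgeR. Mrtfa was at -0.34 ± 0.30, with an r of 0.70 with the mural profile. Mrtfb was at 0.16 ± 0.18, and Myocd, the smooth muscle coactivator, had no read in 9 mice. Of the 4 contact and lipid signal genes, 1 was below 0 and 3 above, with S1pr1 at 0.09 ± 0.08, Cdh2 at 0.00 ± 0.13, Edn1 at 0.11 ± 0.26 and Ednrb, an endothelin receptor, at -0.80 ± 0.47. The tested genes of these 6 lists all had an unadjusted p above 0.05 in edgeR.

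Markers of other cells were set beside the members. All 12 endothelial genes were tested, 4 below 0 and 8 above, with a median of 0.02 and values from -0.09 (Tek) to 0.16 (Cldn5). Vwf was at 0.03 ± 0.10, Esam at 0.06 ± 0.07 and Cd34 at 0.04 ± 0.07. The summed level of the fibroblast genes had an r of 0.80 with the mural profile. It was 68.2 to 101 CPM in OSM mice and 79.5 to 170 CPM in PBS mice. Among single genes, r was 0.60 for Col1a1, 0.54 for Col1a2, 0.50 for Fbln1 and 0.155 for Dcn. All 4 tested fibroblast genes were below 0 (median -0.82), of which Col1a2 had an unadjusted p of 0.0408 in edgeR (adjusted p 0.9996). Fbln1, a matrix glycoprotein, was read in every mouse, at 64.0 ± 14.8 CPM, with a log2 fold change of -0.22 ± 0.19. Col1a2 was at 21.9 CPM on average and -1.31 ± 0.56, and Col1a1 at 18.9 ± 16.4 CPM and -1.53 ± 1.23. Dcn (decorin) had no read in 2 mice and was at 2.75 ± 2.84 CPM and -0.33 ± 1.23. Within litters 1, 2 and 3 the Dcn difference was 1.20, -1.28 and 0.32 on the log2 scale. Pdgfra had no read in 5 mice, Lum none in 10 and Dpt none in 11. The part of fibroblasts in the mural values was not tested.

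The globin genes went the other way. Hbb-bs was at 1.01 ± 0.25 (unadjusted p 0.00195) and Hba-a1 at 1.096 ± 0.32 (unadjusted p 0.00531) in edgeR, neither called (adjusted p 0.9996), and the platelet gene Pf4 was at -0.04 ± 1.21. Ppbp had no read in 10 mice. The platelet and erythroid list summed to 259 to 847 CPM in OSM mice and to 96.9 to 434 CPM in PBS mice, and its r with the mural profile was -0.42. Its part in the mural values was not tested. Rod genes had 2 below 0 and 4 above, with an r of 0.10 for their summed level. Gnat1 was at 0.60 ± 0.72, Sag at 0.37 ± 0.69 and Rom1 at 0.61 ± 0.64. Müller glia and astrocyte genes had 3 below 0 and 2 above, with an r of -0.01. Vim was at 0.00 ± 0.09, Apoe at -0.04 ± 0.20 and Glul at 0.02 ± 0.10. Of the 3 retinal pigment epithelium genes only Rlbp1, which Müller glia share, was tested, at -0.39 ± 1.87, while Ttr had no read in 8 mice and Rpe65 none in 10. None of the 5 leukocyte genes passed the filter. Lyz2 had a mean of 8.30 CPM, Csf1r of 1.18, Cd68 of 0.670 and Itgam of 0.107 CPM, and Ptprc, which encodes CD45, had no read in 6 mice.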

How the data were processed

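RNA of sorted CD31+/CD45- retinal cells was measured in 11 mice by RNA sequencing of poly(A)-primed, PCR-amplified cDNA without molecular identifiers. The authors aligned single reads to GRCm39 with STAR and assigned them to GENCODE genes with featureCounts under standard settings. The deposited values are raw read counts per gene, not normalized. The count columns of mice 10 and 11 carry mouse numbers higher by 1 in their headers, and files were assigned as recorded for each sample.

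Genes were named by GENCODE vM39, which held 54749 of the 55359 identifiers. Exon lengths and shared exon bases were also taken from vM39, while the authors counted reads on an earlier GENCODE annotation. The effect of this on levels per kb, percentages of Pecam1 and shared exon bases was not tested. Counts were normalized by TMM and tested with edgeR 4.0.16 in R 4.3.3 (quasi-likelihood, robust) with treatment and litter as terms, on the 13742 genes kept by filterByExpr on the treatment groups (count minimum 10), with Benjamini-Hochberg adjustment over all of them. A call means an adjusted p under 0.05. log2 CPM used a prior count of 2. Within-litter values are differences between the mean log2 CPM of the treatments. For the ratio to Pecam1, the Pecam1 count replaced the library size. The other tests were the litter term and its interaction with treatment. Alternatives were other filters, size factors, DESeq2 1.42.0 (named in the paper's methods), no litter term, and leaving out each mouse or litter. A filter on the model terms was added after seeing the data.

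Each mouse is a sample of its own, and litters are named as in the labels. No libraries were copies, since every pair differed by a chi-square of at least 67.6 per gene (genes with 20 or more reads). PCR copies were counted as reads, so errors are SDs or SEs over mice and not counting errors. The test was first tried on simulated counts with the same dispersion for every gene and no litter effect. That trial does not show the power of the test for the members. The named genes are all members, and of each list the 4 genes with the highest mean CPM, with relatives of members and the 8 genes most alike. A gene of the rod list is not reported here. Members and lists were chosen with earlier results of these data known. Tbx18, Atp13a5, Lum, Dpt, Pdgfra and Ptprc were added to the named genes with their values known. Samples of other experiments were not analysed here.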

Additional observations from a re-analysis of the deposited data

Results flagged for a closer look

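Among 40 groups of values tested for a mouse far from the others (10 members, 2 scales, 2 treatments), 5 held one by Dixon's criterion. Chance alone meets it in about 1 of 20 groups of normally distributed values. The 2 scales rest on the same reads, so the groups are not independent. Myh11, with no read in 4 mice, is not normally distributed, so that rate does not hold for it. Of these 5, 4 were Myh11. In OSM mouse 6 it was at 2.73 CPM, or 0.315% of Pecam1 per kb, while the other OSM mice were at 0 to 0.519 CPM. In PBS mouse 4 it was at 8.31 CPM, or 0.668% of Pecam1 per kb, against at most 0.716 CPM in the other PBS mice. The remaining value was Des in OSM mouse 5, at 4.19% of Pecam1 per kb, against 1.82% to 1.96% in the other OSM mice. The causes were not tested.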

How the results depend on the processing

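Of the 216 fold changes of members under alternatives, 5 changed sign. Myh11 was at 0.64 without OSM mouse 1, at 0.64 without OSM mouse 2 and at 1.83 without litter 1, and Abcc9 was at 0.083 without OSM mouse 9 and at 0.084 without litter 3. With each mouse left out, Abcc9 ran from -0.68 to 0.083 and Myh11 from -4.78 to 0.64, the latter over the 8 of 11 mice whose omission kept it past the filter. Relative to Pecam1, 2 of 127 changed sign, Myh11 at 0.46 without OSM mouse 1 and at 0.46 without OSM mouse 2, and it ran from -4.94 to 0.46 over the same 8 omissions. The number of genes called between OSM and PBS was 0 as reported and in 19 of 22 alternatives, 65 without a filter, 168 with DESeq2 and litter, and 88 with DESeq2 without litter. Between litters, 14 genes were called, 625 without a filter and 0 to 69 with each mouse left out. The OSM effect differing between litters was called for 0 genes, and for 305 without a filter. The median of the members stayed below 0 in the fits with TMM or DESeq2, from -1.23 to -0.42, and in those relative to Pecam1, from -1.255 to -0.67. Of the correlations, 5 of 140 moved by more than their jackknife error: Pdgfrb 0.92 and Abcc9 0.98 without litter and treatment means, Notch3 0.88 without OSM mouse 9, and Acta2 0.75 (rho) and 0.71 without 2 mice. No paired analysis was possible because mouse numbers are not shared between treatments; litter was a term instead. The lowest members, Tagln and Myh11, are limited by depth, and litter 3 by its 1 OSM mouse.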
